A study of Mus musculus with 8 samples.

Results

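Interferon-stimulated genes are the genes that a cell turns on when interferon reaches its surface. This account follows a list of 34 of them through sinusoidal endothelial cells of the mouse liver after an iron load. The members were given by symbol and found by matching the RefSeq accession of each row of the count files to a mouse gene symbol. Of the 34, 31 matched 1 target each, out of 23930 targets in all, and 21 of these are type I-type genes and 10 interferon gamma-type genes. *Isg15*, *Ifit3* and *Gbp6* were not analysed here.

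The libraries came from wild type female Balb/c mice. Controls (4 libraries) received 0.05 M citrate buffer into a vein and treated mice (4 libraries) received 150 µg of iron citrate by the same route, and 5 h later the endothelial cells were sorted on dim CD45 with high STAB2 and high CD146. The design text speaks of 5 samples against 5 from young mice, of which 4 per group are analysed here, and no interferon or microbial agent is named for either group. Libraries were built from short amplicons and held 7969520 to 11314659 counts on targets. Counts were expressed as CPM (counts scaled to a common library size, with TMM factors), and a gene was called at an edgeR adjusted p under 0.05 over all 14601 tested targets. The log2 difference of a gene is its fitted log2 fold change, iron citrate minus citrate buffer. The labels name a mouse for each library but identify no animal, so p-values measure only the spread between these samples, which may be technical. The first citrate buffer library differed most, correlating at a median of 0.839 with its group mates where the remaining 7 libraries reached 0.962 to 0.981, and the main results that rest on it are given with and without it.

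Type I interferons act through the receptor IFNAR, whose kinases JAK1 and TYK2 phosphorylate STAT2 among others. STAT2 joins IRF9 in a complex that binds the interferon-stimulated response element (ISRE) of antiviral genes. Interferon gamma acts through IFNGR and the gamma-activated site (GAS), and turns on IRF1, guanylate-binding proteins, chemokines of the CXCR3 receptor and the peptide-loading machinery of MHC class I. Many genes answer to both, so the split into type I-type and gamma-type is by the stronger known inducer. Sinusoidal endothelium expresses both receptors and takes up circulating virus and microbial products.

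The promoter sequences below show letter matches to these elements, for 5 members that return in the results. They are RefSeq sequences of build GRCm38.p6, on the strand of the gene, from within the 250 bases before the transcription start, and the capitals mark each match of the motif named for that gene. The stretches lie at chr19:34640760-34640819 (plus strand), chr12:26456538-26456597 (minus), chr5:92349068-92349127 (minus), chr3:142496744-142496803 (plus) and chr11:53769899-53769957 (plus), in the order printed. The first 4 hold the ISRE core GAAA-NN-GAAA, searched on both strands, and *Irf1* holds the GAS palindrome TTCNNNGAA.
Ifit1: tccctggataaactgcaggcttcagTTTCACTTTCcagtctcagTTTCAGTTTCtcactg
Rsad2: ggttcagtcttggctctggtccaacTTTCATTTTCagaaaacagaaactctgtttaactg
Cxcl10: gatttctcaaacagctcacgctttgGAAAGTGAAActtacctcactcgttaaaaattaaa
Gbp5: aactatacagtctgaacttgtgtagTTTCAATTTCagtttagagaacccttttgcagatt
Irf1: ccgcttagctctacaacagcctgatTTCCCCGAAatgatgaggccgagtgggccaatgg

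*Ifit1* holds 2 matches, which begin 104 and 85 bases before the start. The match begins 120 bases before it in *Rsad2*, 213 in *Cxcl10*, 165 in *Gbp5* and 90 in *Irf1*. A promoter window was present for 23 of the 31 members, 15 type I-type and 8 gamma-type. The ISRE core was found in 5 of the 15 and 5 of the 8, against 3.46% of the 27025 genes with a window. The GAS palindrome was found in 2 of the 15 and 3 of the 8, against 8.13% of all. The 5 printed members were taken from those with a match, and the windows of *Irf7*, *Ifi44*, *Cxcl9* and *Tap1*, among others, held neither motif. In *Bst2* and in *Gbp3*, 2 ISRE matches overlap each other. These are letter matches and say nothing of binding in these cells.

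No interferon-stimulated gene was called after iron citrate. Of the 21 type I-type members all were tested and none passed, and of the 10 gamma-type members 9 were tested and none passed, beside 0.555% of all tested targets (81, of which 77 were higher). The exception to testing was *Nlrc5*, an activator of MHC class I genes, which had 1 to 7 counts per library. Before adjustment, edgeR gave p under 0.05 for 4 of the 30, against 14.6% of all tested targets. Of these 1 was higher (*Rsad2*, type I-type; 6.57% of all) and 3 were lower (*Dhx58*, type I-type, with *Cxcl9* and *Gbp4*, gamma-type; 8.0% of all). DESeq2 called no member, against 2.5% of all, and limma-voom with sample weights called 1, *Rsad2*, against 1.98% of all.

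The size of what could have gone unseen is bounded by the intervals. The 95% interval of the log2 difference lay within a 2-fold change in either direction for 18 of 21 type I-type and 8 of 9 gamma-type members. For 12 of 21 and 3 of 9 it lay within a 1.5-fold change. The wider intervals were those of *Ifi44*, *Dhx58*, *Mx1* and *Gbp7*. The median log2 difference was -0.08 over the type I-type and -0.29 over the gamma-type members, and -0.01 over all tested targets. Negative values were found for 16 of 21 type I-type members, 6 of 9 gamma-type members and 7443 of all 14601 tested targets. Without citrate buffer replicate 1 the medians were -0.06, -0.19 and -0.04, and negative values were found for 12 of 21, 5 of 9 and 7985 of 14701.

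**Figure D1:**
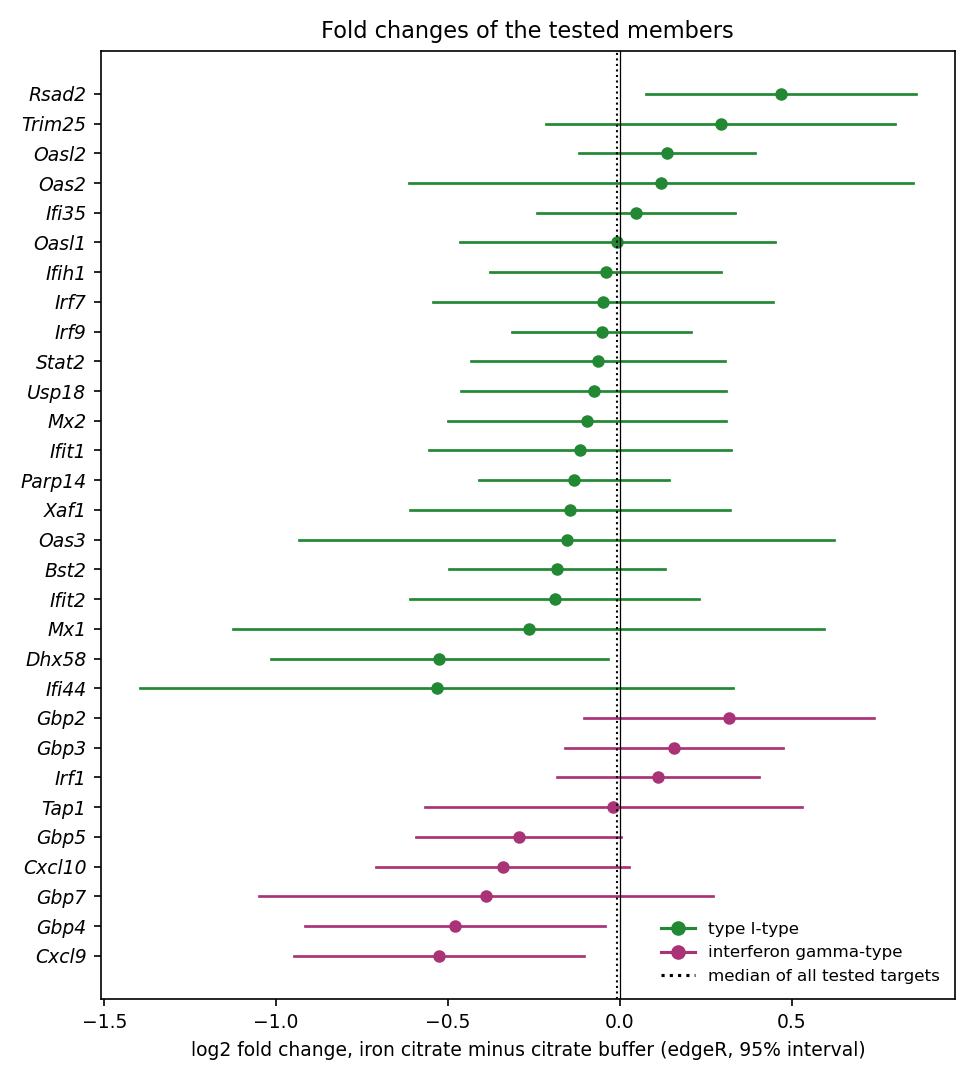
Log2 difference of each of the 30 tested members (points) with its 95% interval from the edgeR fit (bars), iron citrate minus citrate buffer. The type I-type members run from -0.53 for *Ifi44* to 0.47 for *Rsad2* with 16 of 21 below 0, and 6 of the 9 gamma-type members lie below 0. Without citrate buffer replicate 1 (not drawn) 12 of 21 and 5 of 9 are below 0.

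Among the signal carriers, *Stat2*, the STAT that is particular to type I signalling, stood at 58.4, 59.8, 70.4 and 58.2 CPM in citrate buffer replicates 1 to 4 and at 56.3, 43.3, 70.8 and 65.7 CPM in iron citrate replicates 1 to 4. The groups overlapped fully (log2 difference -0.06, SE 0.17, edgeR adjusted p = 0.857). *Irf9*, its DNA-binding partner, was at 53.4, 65.7, 64.6 and 62.1 CPM after buffer and 60.8, 58.7, 60.7 and 56.7 CPM after iron. It had the narrowest interval of the type I-type members that carry the signal, -0.31 to 0.21 (adjusted p = 0.83). *Irf7*, the factor that amplifies interferon alpha production, was at 69.7, 77.0, 129 and 127 CPM after buffer and 99.9, 88.0, 116 and 84.9 CPM after iron. Here the spread was within the buffer group, whose replicates 3 and 4 were high and 1 and 2 low, and the iron values lay between them (log2 difference -0.05, adjusted p = 0.921). The log2 difference was -0.19 without citrate buffer replicate 1 and -0.40 without replicates 1 and 2 (edgeR adjusted p = 0.203 for the latter).

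*Usp18* removes ISG15 from proteins and shuts off IFNAR, so that it rises with the response it restrains. Its values were 26.1, 20.2, 20.5 and 20.7 CPM after buffer and 20.9, 17.4, 23.8 and 20.8 CPM after iron, and citrate buffer replicate 1 was the highest library (log2 difference -0.08, adjusted p = 0.834). *Irf1*, the first-wave factor of the gamma response, was at 175, 199, 205 and 203 CPM after buffer and 204, 203, 251 and 187 CPM after iron. Only iron citrate replicate 3 stood above the rest (log2 difference 0.11, SE 0.13, adjusted p = 0.667).

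The receptors and kinases above these factors were measured with them. None of 16 tested genes of interferon receptors and signalling was called, beside 0.555% of all tested targets. The 16 had a median log2 difference of 0.03 and a lowest edgeR adjusted p of 0.365. *Ifnar1* averaged 134 ± 38.4 CPM in the buffer group and 124 ± 8.07 CPM in the iron group (SD, n = 4 each), and *Ifnar2*, the other chain, at 210 ± 22.7 and 204 ± 15.4 CPM. *Ifngr1*, the ligand-binding chain for interferon gamma, was at 310.1 ± 17.5 and 313 ± 30.6 CPM. *Socs1* was not analysed here.

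Sensors of viral nucleic acid are themselves interferon-stimulated. *Ifih1*, which encodes MDA5, the sensor of long double-stranded RNA, had 44.9 to 64.9 CPM over the 8 libraries (log2 difference -0.04, adjusted p = 0.902). *Dhx58*, which encodes LGP2, a helicase that tunes MDA5 and RIG-I, was at 53.5, 38.2, 41.4 and 25.05 CPM after buffer and 29.9, 29.5, 22.7 and 28.02 CPM after iron. Of the buffer libraries 3 lay above every iron library and the remaining one, replicate 4, lay among them. Its log2 difference of -0.52 (SE 0.22) had an unadjusted p of 0.0383 and an adjusted p of 0.333 by edgeR, and without citrate buffer replicate 1 it was -0.35 (adjusted p = 0.422). *Trim25*, the ubiquitin ligase that switches on RIG-I, was at 15.0, 24.8, 32.4 and 30.5 CPM after buffer and 34.1, 28.5, 32.0 and 31.0 CPM after iron. Only citrate buffer replicates 1 and 2 lay below the iron libraries. The log2 difference went from 0.29 to 0.11 without replicate 1 and to 0.00 (-0.0029) without both.

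In the wider list of nucleic acid sensing and interferon induction, none of 19 tested genes was called, beside 0.555% of all tested targets. RIG-I (*Ddx58*) was at 75.6 ± 2.18 and 73.3 ± 1.53 CPM and its adaptor *Mavs* at 78.0 ± 26.6 and 76.8 ± 5.25 CPM. *Tbk1*, the kinase that phosphorylates IRF3, came closest, and is named here after its values were seen. It was at 158, 207, 205 and 237 CPM after buffer and 355, 331, 364 and 315 CPM after iron, so that the groups did not overlap, as in 6.36% of all tested targets with iron higher. Its log2 difference was 0.76 (SE 0.15, edgeR adjusted p = 0.0648). It was called in 7 of 17 alternatives, whose adjusted p ranged from 2.82e-05 to 0.271. These were upper-quartile factors, library totals, a filter at a mean CPM of at least 5, DESeq2, limma-voom with sample weights, and the fits that left out citrate buffer replicates 1 and 2 together or replicate 1 alone (log2 difference 0.66, adjusted p = 0.00893).

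**Figure D2:**
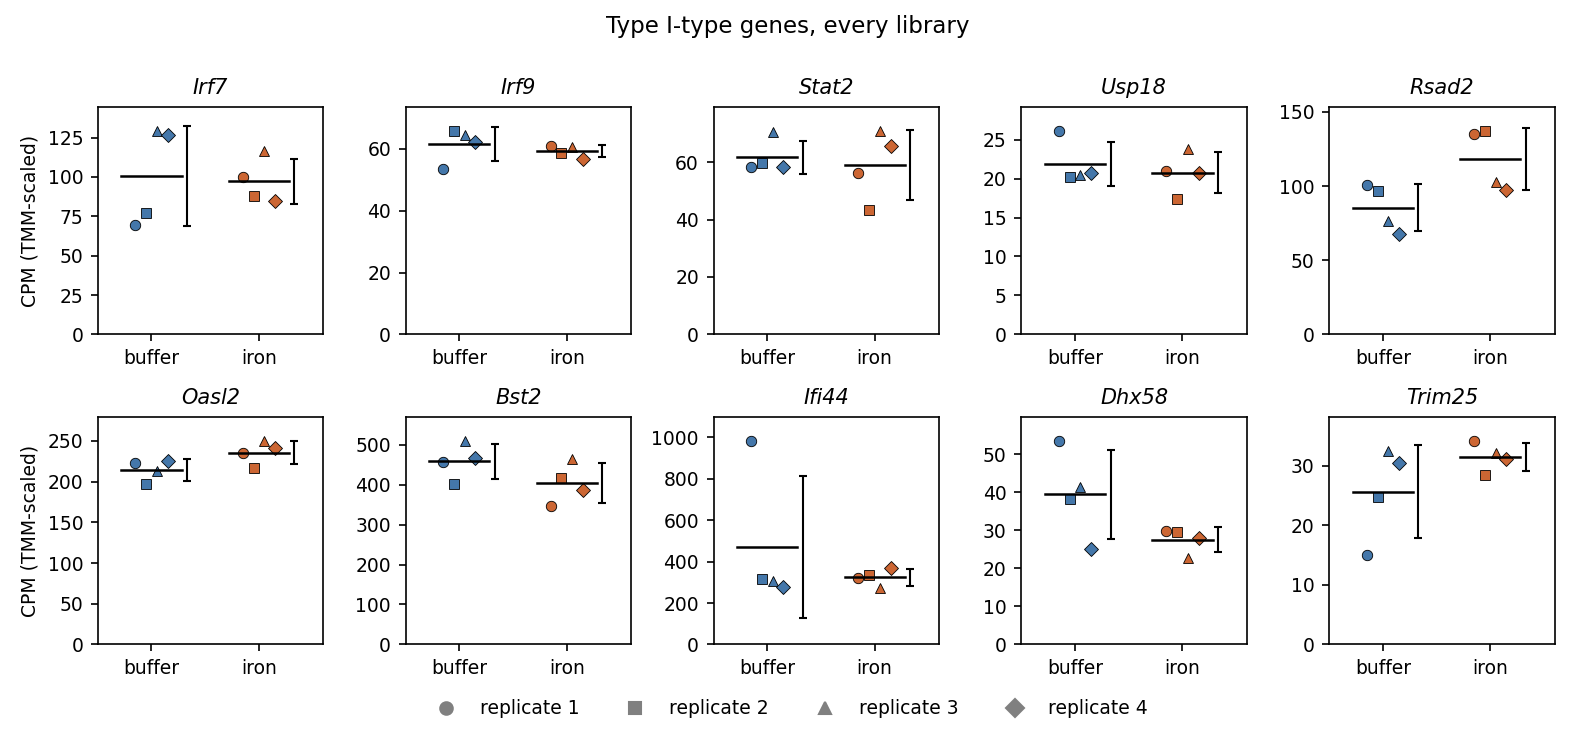
CPM of 10 type I-type genes in each library (points, shaped by replicate number), with the group mean (line) and SD (bar, n = 4), each on a linear axis from 0. The groups overlap in every panel, *Ifi44* is carried by citrate buffer replicate 1 at 982 CPM, and *Rsad2* lies at 97.5 CPM or more in all 4 iron libraries.

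Antiviral effectors made up most of the type I-type list. *Rsad2* encodes viperin, which makes a chain-terminating nucleotide that stops viral polymerases. It was at 101, 96.5, 76.4 and 67.8 CPM after buffer and 135, 137, 103 and 97.5 CPM after iron. The groups overlapped only where citrate buffer replicate 1 exceeded iron citrate replicate 4. It had the largest positive change of the 30 members, a log2 difference of 0.47 (SE 0.18, unadjusted p = 0.0243, edgeR adjusted p = 0.333). It passed with limma-voom and sample weights together (0.65, adjusted p = 0.0419) and also when citrate buffer replicates 1 and 2 were left out (0.71, adjusted p = 0.0221, where 1.9% of all targets were called), but not without citrate buffer replicate 1 alone (0.55, adjusted p = 0.115). *Cmpk2*, its neighbour in the genome, which supplies the nucleotide for viperin, is named here after its values were seen. It was at 171, 184, 179 and 145 CPM after buffer and 67.3, 153, 145 and 169 CPM after iron, with a log2 difference of the opposite sign (-0.35, SE 0.25, adjusted p = 0.452). Iron citrate replicate 1 was the low library, and without it the log2 difference was -0.12.

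The other effectors gave no such separation. *Oasl2*, an OAS-like protein, was at 224, 197, 213 and 225 CPM after buffer and 235, 216, 249.8 and 242 CPM after iron (log2 difference 0.14, SE 0.12, adjusted p = 0.524). *Bst2*, which encodes tetherin, the tether of budding virus, was at 456, 401, 509 and 467 CPM after buffer and 347, 417, 465 and 385 CPM after iron (log2 difference -0.18, SE 0.14, adjusted p = 0.484). The other oligoadenylate synthetase genes, *Oas2*, *Oas3* and *Oasl1*, had log2 differences of 0.12, -0.16 and -0.01, and the RNA-binding *Ifit1* and *Ifit2* of -0.12 and -0.19. Without citrate buffer replicate 1, *Oas2*, *Oas3* and *Oasl1* were at 0.28, -0.33 and -0.14, *Ifit1* at 0.051 and *Ifit2* at -0.16. *Mx2* stood at 17.9 ± 1.603 and 16.8 ± 2.12 CPM (SD, n = 4 each). *Mx1*, an influenza restriction factor whose allele is defective in Balb/c mice, was at 7.52, 4.68, 6.14 and 2.92 CPM after buffer and 3.42, 5.76, 5.46 and 3.12 CPM after iron (log2 difference -0.27, SE 0.39, adjusted p = 0.731; -0.064 without citrate buffer replicate 1). *Ifi35*, *Parp14* and *Xaf1* had log2 differences of 0.05, -0.13 and -0.15.

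*Ifi44*, a cytoplasmic protein of the type I response, was at 982, 314, 307 and 276 CPM after buffer and 321, 336, 272 and 370 CPM after iron. Citrate buffer replicate 1 was the only library out of the common range. The log2 difference of -0.53 (SE 0.39, adjusted p = 0.453) changed sign to 0.12 without that library. The same library was highest for *Gbp7* of the gamma-type list (286 CPM, against 100.4 to 136 CPM in the other 7), whose log2 difference went from -0.39 to 0.05 without it. Citrate buffer replicate 1 was the highest library for 10 of the 30 tested members, against 37.4% of all tested targets, and the lowest for 8, against 36.6%. Without it 5 of the 30 log2 differences changed sign, those of *Ifi44*, *Gbp7*, *Ifit1*, *Ifih1* (0.053) and *Usp18* (0.020).

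Of the 35 tested genes on a wider type I-type list, with a median of -0.03, no gene passed, beside 0.555% of all tested targets. *Lgals3bp*, named after its values were seen, was called in 1 of 17 alternatives. This was without citrate buffer replicates 1 and 2 (edgeR adjusted p = 0.0412), where 1.9% of all targets were called. *Oas1a* was at 33.4 ± 5.602 and 31.7 ± 4.05 CPM and *Oas1b*, the flavivirus resistance gene, at 8.94 ± 2.43 and 7.94 ± 1.181 CPM (SD, n = 4 each). In this list 16 genes had a positive and 19 a negative log2 difference, between -0.35 and 0.33.

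Of the 9 tested gamma-type members 6 had a negative and 3 a positive log2 difference, and the most negative was that of a CXCR3 chemokine, a family that draws T and NK cells. *Cxcl9* was at 695, 664, 526 and 853 CPM after buffer and 413, 536, 388 and 563 CPM after iron. Citrate buffer replicate 3 was the only buffer library inside the iron range. Its log2 difference was -0.53 (SE 0.19, unadjusted p = 0.0197, edgeR adjusted p = 0.333), so it did not pass. The value was negative in all 17 alternatives, from -0.64 to -0.40, and passed in none of them.

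*Cxcl10* was at 153, 145, 105 and 123 CPM after buffer and 106, 97.5, 85.9 and 126 CPM after iron. The groups overlapped, with iron citrate replicate 4 above 2 buffer libraries (log2 difference -0.34, SE 0.16, adjusted p = 0.333). The log2 difference was -0.26 without citrate buffer replicate 1 and -0.13 without replicates 1 and 2. The remaining CXCR3 ligand, *Cxcl11*, is on the wider gamma-type list and is named here after its values were seen. It was at 53.0, 29.6, 22.1 and 30.9 CPM after buffer and 21.2, 19.2, 17.6 and 18.3 CPM after iron. All iron values lay below all buffer values, as in 2.29% of all tested targets, and the log2 difference was -0.83 (SE 0.25, unadjusted p = 0.00841, edgeR adjusted p = 0.304). Without citrate buffer replicate 1 it was -0.52 (adjusted p = 0.146).

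**Figure D3:**
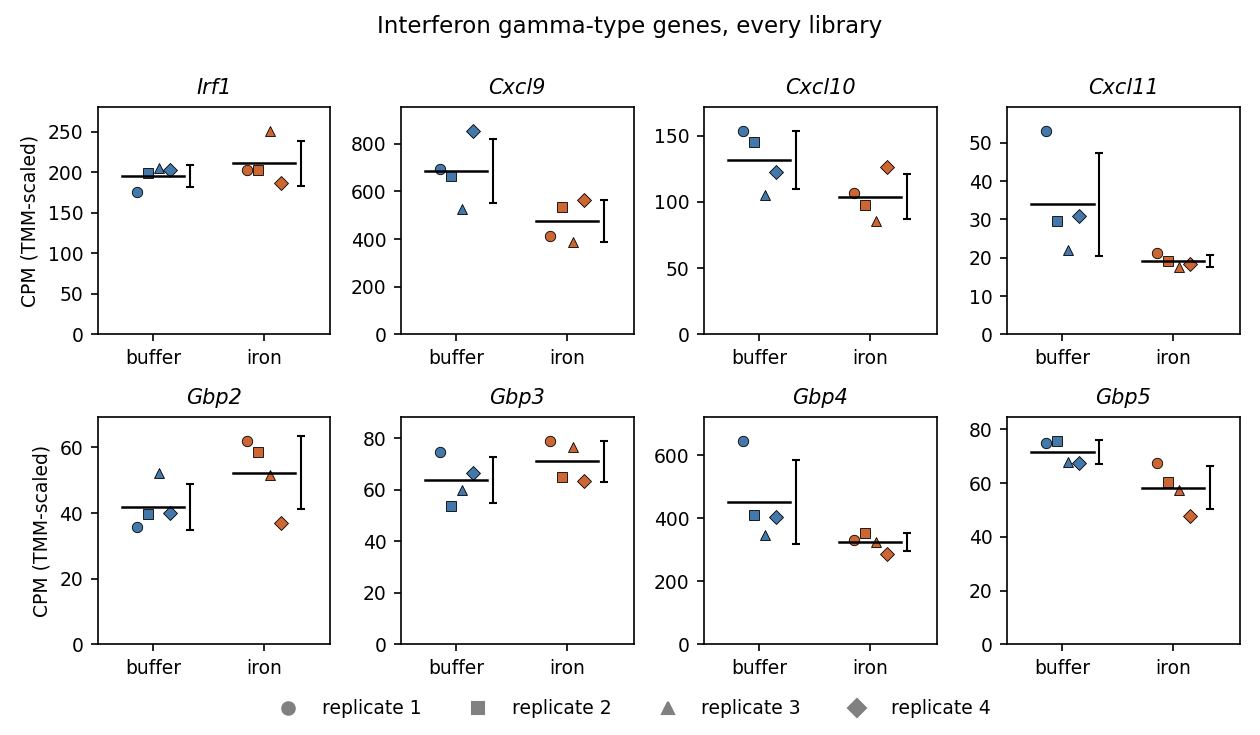
CPM of 8 interferon gamma-type genes in each library (points, shaped by replicate number), with the group mean (line) and SD (bar, n = 4), each on a linear axis from 0. The 3 CXCR3 chemokines, *Gbp4* and *Gbp5* have lower iron means, *Irf1*, *Gbp2* and *Gbp3* have higher ones, and no difference passed the test.

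Guanylate-binding proteins coat intracellular vacuoles and bacteria, and the members of the family lay on both sides of 0. *Gbp4* was at 645, 411, 349 and 404 CPM after buffer and 331, 355, 324 and 288 CPM after iron, and the groups overlapped only between citrate buffer replicate 3 and iron citrate replicate 2. Its log2 difference was -0.48 (SE 0.20, edgeR adjusted p = 0.333) and -0.26 without citrate buffer replicate 1 (adjusted p = 0.387). *Gbp5*, which promotes inflammasome assembly, was at 74.9, 75.6, 67.8 and 67.4 CPM after buffer and 67.3, 60.4, 57.6 and 47.8 CPM after iron. It was the only member of the 30 whose groups did not overlap, against 8.64% of all tested targets in either direction, and the gap between the nearest libraries was 67.4 against 67.3 CPM (log2 difference -0.29, SE 0.13, adjusted p = 0.333).

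*Gbp2* and *Gbp3* had positive log2 differences. *Gbp2* was at 35.8, 39.7, 52.1 and 40.0 CPM after buffer and 61.9, 58.5, 51.6 and 36.9 CPM after iron (log2 difference 0.32, SE 0.19, adjusted p = 0.374). *Gbp3* was at 74.6, 53.9, 60.0 and 66.4 CPM after buffer and 78.9, 64.9, 76.7 and 63.6 CPM after iron (log2 difference 0.16, SE 0.14, adjusted p = 0.559). In both genes the groups overlapped. *Gbp2*, *Gbp3*, *Gbp5* and *Gbp7* lie in 1 cluster on chromosome 3, and reads of close copies can be shared between such targets, so their separate values are uncertain to that extent.

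For antigen presentation, *Tap1*, a subunit of the peptide transporter, had a log2 difference of -0.02 (SE 0.25), with 21.3 to 44.5 CPM over the 8 libraries. On the wider gamma-type list none of 22 tested genes was called, beside 0.555% of all tested targets, and the median was -0.22. Of the 22, 6 had a positive and 16 a negative log2 difference, where 7443 of all 14601 tested targets were negative. *Serpina3g*, named after its values were seen, was called lower in 1 of 17 alternatives. This was without citrate buffer replicates 1 and 2 (edgeR adjusted p = 0.0329), where 1.9% of all targets were called. *Irgm1*, a GTPase of vacuole defence, was at 39.9 ± 9.11 and 33.04 ± 7.76 CPM and *Igtp* at 57.3 ± 7.99 and 51.8 ± 9.57 CPM (SD, n = 4 each). The inducible proteasome subunits, named after their values were seen, were also on the lower side. *Psmb8*, *Psmb9* and *Psmb10* had log2 differences of -0.32, -0.44 and -0.29, with edgeR adjusted p-values of 0.333, 0.333 and 0.368, so none passed.

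The ligands were read through targets of another kind. Of 16 matched interferon genes, 12 have a single exon in the GENCODE M21 annotation, among them *Ifnb1* and 9 interferon alpha genes, so their amplicons cannot span an intron. Their summed signal was 231, 95.3, 52.8 and 50.2 CPM in citrate buffer replicates 1 to 4 and 51.5, 53.9, 31.4 and 66.3 CPM in iron citrate replicates 1 to 4. The share of counts on 1286 targets of olfactory, vomeronasal type 1, taste and keratin-associated families, which liver is not known to express and whose coding sequence mostly lacks introns, was 2.42%, 0.983%, 0.461% and 0.420% after buffer and 0.444%, 0.508%, 0.295% and 0.611% after iron. Both measures put the 8 libraries in the same order, from citrate buffer replicate 1, the highest, through citrate buffer replicate 2 to iron citrate replicate 3, the lowest. The part of this signal in the ligand values was not tested.

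*Ifnb1* was at 22.2, 10.5, 6.77 and 5.57 CPM after buffer and 5.08, 5.76, 3.99 and 7.62 CPM after iron, and its log2 difference of -1.004 (SE 0.46, edgeR adjusted p = 0.333) was -0.14 without citrate buffer replicates 1 and 2. *Ifna2* had a log2 difference of -0.89 (SE 0.47, adjusted p = 0.338) and 0.06 without them. None of the 11 tested ligands was called, beside 0.555% of all tested targets. All 11 had a negative log2 difference in the 8 libraries (median -1.004). Without citrate buffer replicate 1 it was 10 of 11 (median -0.41), and without replicates 1 and 2 it was 6 of 11.

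*Ifng*, which has introns and is made by T and NK cells, was at 103, 55.4, 37.8 and 29.6 CPM after buffer and 33.8, 43.1, 37.5 and 32.6 CPM after iron (log2 difference -0.62, SE 0.34, edgeR adjusted p = 0.347). Citrate buffer replicate 1 was again the highest, and without it the log2 difference was -0.16. The 11 matched T and NK cell markers summed to 2727 CPM in that library, 893 to 1404 CPM in the other buffer libraries and 997 to 1221 CPM in the iron libraries, none of the 11 being at 0 in all libraries. *Gzma*, a granzyme of NK cells named here after its values were seen, was at 1261 CPM in it and 224 to 395 CPM in the other 7. In sorted bulk RNA, fewer cells of a type and less RNA per cell cannot be told apart, and the part of these cells in the *Ifng* and gamma-type values was not tested.

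**Figure D4:**
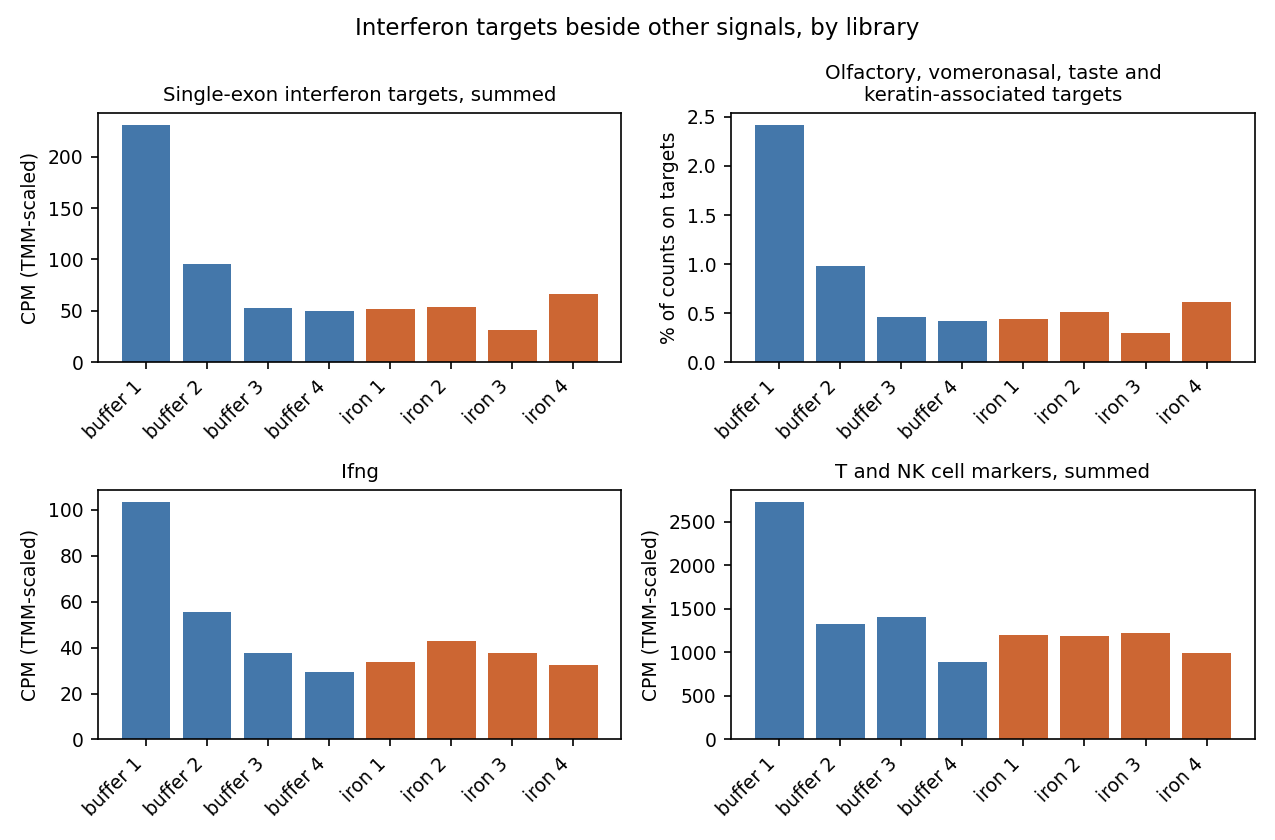
By library, the summed CPM of 12 single-exon interferon targets, the share of counts on 1286 targets of silent families, the CPM of *Ifng* and the summed CPM of 11 T and NK cell markers (bars from 0; citrate buffer in blue, iron citrate in orange). Citrate buffer replicate 1 is the highest library in all 4 panels.

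The labelled cell type was present by its markers, with *Stab2* at 1086 ± 154 and 977 ± 131 CPM (SD, n = 4 each). The 12 sinusoidal markers summed to 14935 CPM in citrate buffer replicate 1, the lowest library, and to 23160 to 30223 CPM in the other 7. None of the 12 was called, beside 0.555% of all tested targets, 7 having a positive and 5 a negative log2 difference. *Mcam*, the gene of the sort marker CD146, is named here after its values were seen. It was called lower in 6 of 17 alternatives, whose log2 differences ran from -0.62 to -0.43 and adjusted p from 0.00319 to 0.536. The 10 dendritic cell markers summed to 478 to 549 CPM after buffer and 633 to 698 CPM after iron. Of the 10 markers 6 had a positive and 4 a negative log2 difference. The unadjusted edgeR p was under 0.05 for 3 higher and 0 lower markers, against 6.57% and 8.0% of all tested targets. *Clec9a* alone was called, and it was higher (0.76, edgeR adjusted p = 0.0221), beside 0.555% of all tested targets called. It was called in 9 of 17 alternatives, with adjusted p up to 0.130. The others did not pass, among them, named after their values were seen, *Siglech* of plasmacytoid dendritic cells, the main makers of interferon alpha (0.69), *Flt3* (-0.60), *Xcr1* (-0.54) and *Cox6a2* (-0.76). *Klk1*, also named after its values were seen, was positive in all 17 alternatives (0.49 to 0.99) and passed in none of them. The 8 matched monocyte and neutrophil markers summed to 645 CPM in citrate buffer replicate 1, 250.3 to 284 CPM in the other buffer libraries and 338 to 389 CPM in the iron libraries. With all 8 libraries none of these markers was called, beside 0.555% of all tested targets, 4 being higher and 4 lower (median log2 difference -0.03). Without citrate buffer replicate 1, edgeR called 4 of them higher (median 0.80), where 221 of 14701 tested targets were called higher. None of these lists had a marker at 0 in all 8 libraries, and their part in the values of the interferon-stimulated genes was not tested.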

How the data were processed

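The authors deposited whole-number read counts per RefSeq target, 1 file per library. The submitters' processing notes name HTSeq 0.6.0 and DESeq2 1.18.1 without their roles, and the files hold summary lines of the HTSeq kind. The sources used here do not name the aligner, genome build or read filters. Those lines, 2.15% to 4.60% of counts, were left out. Libraries were made with an Ion AmpliSeq kit, per the labels' protocols, which name no molecular identifiers. Symbols came from RefSeq and GENCODE tables, and 1368 targets had no match.

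Counts were filtered with filterByExpr, scaled with TMM and tested with edgeR 4.0.16 (quasi-likelihood, robust, R 4.3.3), Benjamini-Hochberg over 14601 targets. Intervals used the fit's degrees of freedom. The alternatives were 3 other scalings, DESeq2 1.42.0, limma-voom with sample weights (limma 3.58.1), 2 other filters, a replicate block, each library left out and citrate buffer replicates 1 and 2 left out. Tested on simulated counts of 14523 genes for iron against buffer, edgeR found 26 of the 100 genes given a 2-fold change and 68 of the 100 given 4-fold, with 6 false calls among 14323 others. Simulated libraries were drawn independently with the fitted spread of each gene, so none differed as a whole as citrate buffer replicate 1 did. These numbers hold for that setting only.

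Members, lists and tests were chosen with earlier results of these data known. Members with values in every library were called, non-overlapping, largest in change or level, or central to the pathway. From wider lists the called or else the first 2 tested genes were taken, and *Ifnb1*, *Ifng*, *Ifnar1* and *Ifngr1* always. Genes outside this rule are marked in the text.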

Additional observations from a re-analysis of the deposited data

Results flagged for a closer look

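In 3 of 60 checks of a member in a group of 4 libraries, 1 library lay further from the rest than the limit for 4 values, where chance gives about 1 in 20. *Ifi44* was at 982 CPM in citrate buffer replicate 1, against 276 to 314 CPM in the other buffer libraries. *Usp18* was at 26.1 CPM in the same library, against 20.2 to 20.7 CPM. *Stat2* was at 70.4 CPM in citrate buffer replicate 3, against 58.2 to 59.8 CPM in the others, and iron citrate replicate 3 reached 70.8 CPM.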

How the results depend on the processing

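Of 305 values of 18 named members under the 17 alternatives, 290 kept their direction and their side of the threshold, 13 changed sign and 2 passed, both for *Rsad2*: 0.65 with limma-voom and sample weights (changed together) and 0.71 without citrate buffer replicates 1 and 2. These made 1 type I-type call in each of the 2 settings. The gamma-type list had 0 calls in every alternative. The type I-type and gamma-type medians were -0.20 and -0.42 with upper-quartile factors and -0.19 and -0.40 with library totals, which moved the median of all tested targets to -0.12 and -0.11. Without citrate buffer replicates 1 and 2 the gamma-type median was -0.13. Leaving out 1 library gave -0.15 to -0.03 and -0.35 to -0.19. All calls numbered 365 with DESeq2, 289 with weighted limma-voom, 281 without citrate buffer replicates 1 and 2, and 46 to 259 with 1 library left out, the highest without citrate buffer replicate 1 and the lowest without iron citrate replicate 1 or 2. With the replicate number as a block 43 genes and no member were called. Replicate numbers are those of the titles; the file names of the buffer libraries carry other numbers. The deviations of same-numbered libraries correlated at -0.0003, 0.176, 0.609 and -0.315 in pairs 1 to 4. Only in pair 3 was this the highest value for both libraries. Citrate buffer replicate 2 correlated more with iron citrate replicate 4 (0.192) than with its own number, so the block is given only here. Sign changes were *Ifi44* (0.070 with weighted limma-voom, 0.15 without citrate buffer replicates 1 and 2, -0.71 to 0.12 with 1 library left out), *Trim25* (-0.0029) and *Usp18* (0.011) without citrate buffer replicates 1 and 2, and *Irf1* (-0.0043) with upper-quartile factors. With 1 library left out *Irf7* ranged from -0.19 to 0.088, *Stat2* from -0.16 to 0.061 and *Usp18* from -0.15 to 0.020. The cause was not tested. *Nlrc5* did not pass the count filter and was not tested in the main fit, and *Mx1* was not tested with a mean CPM of at least 5.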
